A study of Mus musculus with 13 samples.

Results

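The mitochondrial genome transcripts of the atherosclerotic mouse aorta are described here across 13 RNA-seq libraries in 4 diet and drug groups. They were chosen by name, as every gene of the count table whose symbol starts with mt-, which gave 37 of 56953 genes: 13 protein genes, 2 rRNA genes and 22 tRNA genes. All mice were ApoE-/-, which lack apolipoprotein E and develop atherosclerosis, and all were fed a Western diet with 40% of its energy as fat for 16 weeks from 6 weeks of age. The diet was given alone (WD, 5 libraries), with auranofin at 3 mg/kg/day (auranofin, 3 libraries), with atorvastatin at 10 mg/kg/day (atorvastatin, 3 libraries), or with both drugs at those doses (combination, 2 libraries). RNA came from whole aorta. Sex and the strain background were not given in the sources used here, and no mouse on normal chow and no wild-type mouse was analysed here. Auranofin is a gold compound that inhibits thioredoxin reductase, an enzyme with a mitochondrial form, and atorvastatin is a statin that lowers cholesterol synthesis. The labels do not say which mouse gave which library, so p-values measure only the spread between these samples.

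The mitochondrial genome is a small circle that is present in many copies per cell and is transcribed from both strands into long precursors. Its protein genes encode core subunits of respiratory complexes I, III, IV and V, and its rRNAs and tRNAs serve the ribosomes inside the organelle. The tRNAs lie between most of the other genes and are cut out of the precursors, which frees the mRNAs and rRNAs. All other mitochondrial proteins, including the RNA polymerase that reads this genome, are encoded in the nucleus. In arteries, mitochondria-rich cells include those of the fat around the vessel, and in bulk tissue fewer cells of a type and less RNA per cell cannot be told apart.

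The 13 totals lay between 19703683 and 26079566 counts (median 23550042). Genes with a count numbered 22432 in WD 2, the lowest of the 13 libraries, and up to 25464. Scaling factors of the TMM method, which corrects for a few abundant genes taking up a library, were lowest in auranofin 2 (0.629), WD 2 (0.639) and WD 5 (0.801). The other libraries lay between 0.999 and 1.23. These 3 libraries also stand apart in several results below. Contractile smooth muscle genes, which mark the wall of the aorta, were present throughout, with a summed level of 6173 CPM (counts scaled to a common library size) in auranofin 2 to 28167 in WD 5.

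Of the 37 genes, 16 had counts: all 13 protein genes, both rRNA genes and 1 tRNA gene. The other 21 tRNA genes were listed at 0 in every library. The tRNA genes are 59 to 75 bases long in the GENCODE M21 annotation of build GRCm38, used here for lengths and neighbours only because the counts were made on GRCm39. In that annotation 18 of the 22 tRNA genes have another gene within 5 bases on both sides, and all 18 were at 0. The tRNA genes mt-Tn and mt-Tc, which lie 32 bases apart, were at 0 as well. The 1 tRNA gene with counts was mt-Tp, the tRNA for proline, with 807 to 6300 counts per library. It is the last gene before the control region, so a gene adjoins it on 1 side only, as is also the case for mt-Tf, the first gene after that region, which was at 0. The libraries were made from poly-A RNA and do not mark strand, so rRNA and tRNA values refer to molecules that passed that selection, and transcripts of opposite strands over the same bases cannot be told apart. The sequence of mt-Tp from GENCODE M21 is shown because it is the sole tRNA gene with a value, with its anticodon in capitals.
mt-Tp: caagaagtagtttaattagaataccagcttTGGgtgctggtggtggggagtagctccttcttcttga

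Of the neighbouring mitochondrial genes, 9 pairs share bases in the annotation, and in 4 of them both genes had counts, which bears on how reads could be assigned. The last 43 bases of mt-Atp8, a subunit of ATP synthase, are also the first of mt-Atp6, its neighbour in that complex. The last 7 bases of mt-Nd4l, a subunit of complex I, are likewise the first of mt-Nd4, another subunit. mt-Nd5 and mt-Nd6, on opposite strands, share 14 bases, and mt-Atp6 and mt-Co3 share 1. mt-Atp8 and mt-Nd4l are printed from GENCODE M21 with the shared bases in capitals, since mt-Atp8 had the fewest counts per length and mt-Nd4l the most variable share of mitochondrial counts.
mt-Atp8: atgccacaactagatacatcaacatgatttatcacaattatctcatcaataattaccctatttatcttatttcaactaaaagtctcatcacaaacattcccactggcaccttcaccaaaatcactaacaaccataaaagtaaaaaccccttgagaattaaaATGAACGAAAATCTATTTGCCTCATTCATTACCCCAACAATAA
mt-Nd4l: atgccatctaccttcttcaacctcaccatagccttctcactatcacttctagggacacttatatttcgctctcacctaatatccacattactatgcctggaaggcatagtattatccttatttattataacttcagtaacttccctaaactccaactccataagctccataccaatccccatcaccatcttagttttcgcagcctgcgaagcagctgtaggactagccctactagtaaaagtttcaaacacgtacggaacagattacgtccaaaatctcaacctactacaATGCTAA
Counts of mt-Atp8 came to 0.231% of those of mt-Atp6 in WD 5 and 0.647% in auranofin 3, the lowest and the highest of the 13 libraries. How featureCounts was set to treat reads over 2 genes was not given in the sources used here.

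A set of 7 stretches of nuclear DNA carry nearly the same sequence as mitochondrial genes and are annotated as pseudogenes, and they took a large part of the counts. A search of GENCODE M21 transcripts with blastn (at least 95% identity over at least 250 bases) found 7 copies with more than 99% identity and 4 that had diverged further. The 7 lie next to each other on 1 nuclear chromosome, on the same strand, and read along that strand they keep the mitochondrial order: the last 483 bases of mt-Co1 (Gm29216), then mt-Co2 (Gm28661), mt-Atp6 (Gm10925), mt-Co3 (Gm28437), mt-Nd3 (Gm28438), mt-Nd4l (Gm10222) and the first 876 bases of mt-Nd4 (Gm28439). Only Gm28438 and Gm29216 differed from their originals within the aligned bases, each at 1 position. For mt-Nd3 that position is T3C, counted from 1 at the first base of the gene, with the original base first. The first 33 bases of both genes show how little separates a nuclear from a mitochondrial read, with that position in capitals.
mt-Nd3: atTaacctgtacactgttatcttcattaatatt
Gm28438: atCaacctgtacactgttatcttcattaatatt
In Gm29216 the position is A1066T of mt-Co1, 4 bases into the copied stretch.

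Apart from Gm10925, the counts of each whole-length copy followed those of its original closely. Across the 13 libraries Gm28661 had 0.0647% to 0.128% more counts than mt-Co2, Gm28437 had 0.218% to 0.349% more than mt-Co3, Gm28438 had 0.0951% to 0.951% more than mt-Nd3, and Gm10222 had 0.32% to 0.999% more than mt-Nd4l. Gm10925 had 21.7% to 42% more counts than mt-Atp6. That excess was 81148 counts in WD 1 and 382541 in auranofin 2, against 946 and 4541 counts of mt-Atp8 in the same libraries. In the plot of copies against originals the 4 close pairs lie on the line of equal counts, Gm10925 lies above it, and the 2 partial copies lie below it. The 7 copies took 5.22% of all counts in WD 1 and 21.5% in auranofin 2, the lowest and highest libraries. Whether single reads were counted at both places was not tested. The values of all 7 originals, mt-Co1 and mt-Nd4 with their partial copies included, are therefore uncertain to the extent that reads could be split between or shared by the copies. The 4 diverged copies together took 0.0442% to 0.187%.

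**Figure D1:**
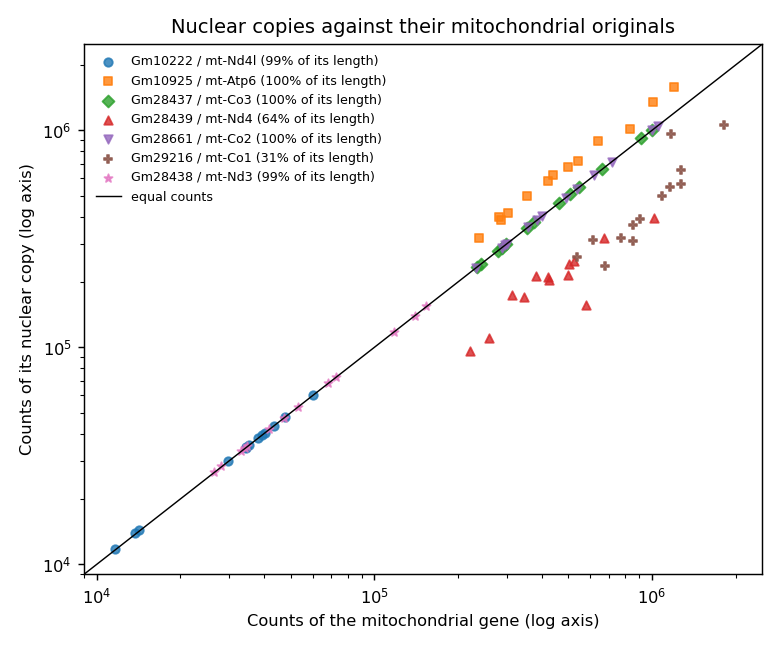
Counts of 7 nuclear copies (vertical, log axis) against counts of the mitochondrial gene each one copies (horizontal, log axis), with 1 point per library and copy and a line of equal counts. Gm10925 had 21.7% to 42% more counts than mt-Atp6, and the partial copies of mt-Co1 and mt-Nd4 lie below the line.

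Mitochondrial genes took 9.36% to 38.8% of all counts, a 4.14-fold range over the 13 libraries. The 5 WD libraries held 9.36%, 26.9%, 19.4%, 13.5% and 24.2% (mean 18.7% ± 7.29, SD, n = 5). The 3 auranofin libraries held 24.0%, 38.8% and 16.0% (26.3% ± 11.5, n = 3). Only auranofin 2 exceeded every WD library, and auranofin 3 fell inside the WD range. The 3 atorvastatin libraries held 12.2%, 14.9% and 21.1% (16.1% ± 4.54, n = 3), and the combination libraries held 11.3% and 19.1% (15.2% ± 5.49, n = 2). All values of both these groups lay inside the WD range. Each share carries a 95% Wilson score interval for a binomial share (9.35% to 9.37% in WD 1 and 38.73% to 38.77% in auranofin 2). It covers counting error only and is far below the differences between libraries of a group.

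With the 7 nuclear copies left out of the total, the share ran from 9.88% in WD 1 to 49.4% in auranofin 2. The WD libraries then held 9.88%, 32.3%, 21.6%, 14.5% and 28.4% (21.4% ± 9.35), and the auranofin libraries 27.5%, 49.4% and 17.6% (31.5% ± 16.3). Atorvastatin libraries held 13%, 16.1% and 23.7% (17.6% ± 5.51), and combination libraries 12.1% and 21.2% (16.7% ± 6.47). The order of the libraries at both ends was unchanged, with WD 1 lowest and auranofin 2 highest under each denominator. Set against all other genes without the copies, mitochondrial genes had 11 counts per 100 in WD 1 and 97.6 per 100 in auranofin 2, an 8.9-fold range. The mean share differed from WD by 7.59 percentage points with auranofin, by -2.61 with atorvastatin and by -3.45 with the combination. No test was made of a score summed over the chosen genes. The auranofin difference was 1.35 points without auranofin 2 and 12.7 without auranofin 3, the combination difference was 0.43 points without combination 1 and -7.34 without combination 2, and the atorvastatin difference was -0.56 points without WD 2 and -5.12 without atorvastatin 3.

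**Figure D2:**
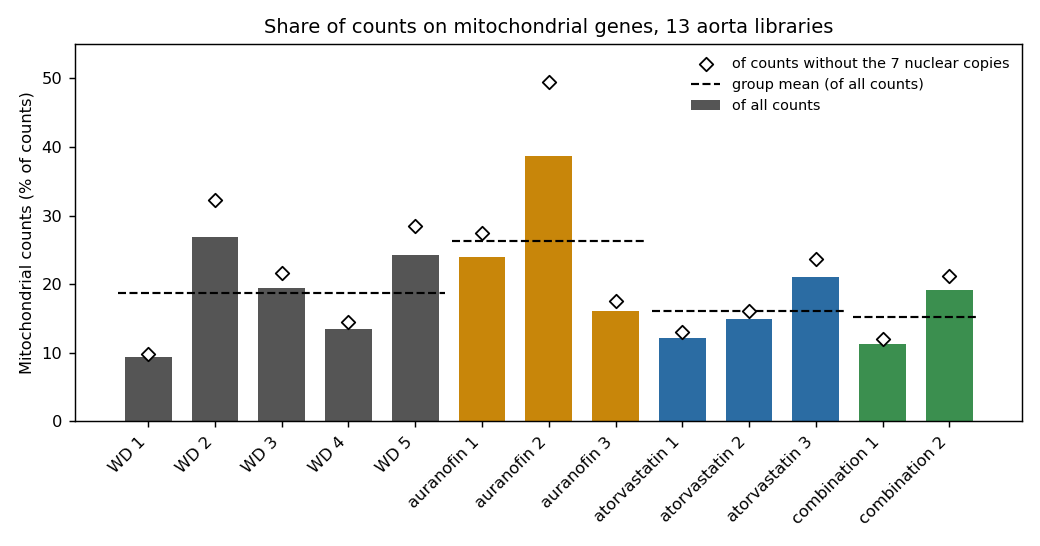
Share of counts on the 37 mitochondrial genes in each library (bars, % of all counts, coloured by group), with dashed lines at the group means and diamonds for the share after the 7 nuclear copies were left out of the total. The bars run from 9.36% in WD 1 to 38.8% in auranofin 2, and every group overlaps the WD group.

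The 16 genes shared their extreme libraries but did not all follow one another in between. On the TMM-scaled CPM scale auranofin 2 had the highest and WD 1 the lowest level of every one of the 16. In WD 5, however, mt-Nd4l had 589 CPM, below its median of 1559 over the 13 libraries. mt-Nd2 had 20621 CPM there, above its median of 9934. mt-Co1, the catalytic core of cytochrome c oxidase (complex IV), had 19187, 76463, 44402, 28197 and 59316 CPM in WD 1 to WD 5. It had 53093, 119461 and 33758 CPM in the auranofin libraries, 25667, 32419 and 48803 in the atorvastatin libraries, and 22727 and 40310 in the combination libraries. Only auranofin 2 lay outside the WD range. The ratio of the highest to the lowest library was smallest for mt-Co1 (6.23) and largest for mt-Rnr1, the small rRNA (18.2), followed by mt-Tp (14.4) and mt-Rnr2, the large rRNA (12.5).

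The study set auranofin against WD to follow its effect on atherosclerosis, and the mitochondrial transcripts were read in that comparison. No member passed in edgeR's quasi-likelihood test with Benjamini-Hochberg adjustment over 18055 tested genes, nor did any other gene, so the background of called genes was 0%. Fitted levels were higher with auranofin for all 16 members, with a median log2 fold change of 0.70 against -0.04 over all genes tested. The values ran from 0.30 for mt-Co3 (SE 0.68), a core subunit of complex IV, to 1.14 for mt-Nd6 (SE 0.57, edgeR adjusted p = 0.671), a complex I subunit and the sole protein gene of the light strand. mt-Nd5, another complex I subunit, had the smallest unadjusted p, 0.0533, in the edgeR fit (log2 fold change 1.02, SE 0.48). Thus 0 of 16 members had an unadjusted p under 0.05, where 6.5% of all genes did, and 0 of 16 had groups that did not overlap, where 2.77% of all genes did. DESeq2 also called 0 members and called 2 genes in all. In it 3 members had an unadjusted p under 0.05, where 1510 of 18055 genes did. The common direction rested on auranofin 2: without it 5 members were higher and 11 lower, with a median of -0.13. The median was 0.44 without WD 1, 1.06 without WD 2 and 1.10 without auranofin 3. Without WD 2, 4 members had an unadjusted p under 0.05, where 840 of 17999 genes did. Without auranofin 3 it was 3 members, where 1602 of 17997 genes passed.

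Atorvastatin was compared with WD in the same way, and 14 of the 16 fitted levels were lower and 2 higher, with 0 called among members and a background of 0%. The median log2 fold change was -0.61, against -0.01 over all genes. mt-Nd3, a small complex I subunit, lay lowest at -1.10 (SE 0.79), with 1739 ± 980 CPM (n = 3) against 3736 ± 3293 in WD (n = 5). mt-Nd4l (0.42, SE 0.51) and mt-Nd5 (0.22, SE 0.49) were the 2 with a higher fitted level. None of the 16 had an unadjusted p under 0.05, against 14.7% of all genes, and none had groups that did not overlap, against 5.7%. Without WD 2 the median was -0.15, and without atorvastatin 3 it was -1.06.

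With the combination, 14 fitted levels were lower than in WD and 2 higher, with a median of -0.73 against -0.01 over all genes. Again 0 were called, with a background of 0%. Lowest was mt-Nd3 at -1.09 (SE 0.93), and highest was mt-Nd5 at 0.05 (SE 0.56). No member had an unadjusted p under 0.05, where 1.47% of genes did, and no member's groups failed to overlap, where 3.29% of genes did. The median was -1.30 without combination 2, -0.35 without combination 1 and -0.25 without WD 2. The 3 comparisons share the WD libraries, so their directions are not independent.

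An additive fit over all 13 libraries gave each drug 1 term, which assumes the same effect with and without the other drug. The medians against WD were 0.70 with auranofin, -0.61 with atorvastatin and -0.73 with the combination. The combination median thus did not lie above that of atorvastatin alone. The auranofin term was above 0 for all 16 members (median 0.40, from 0.17 for mt-Co3 to 0.77 for mt-Nd6), and the atorvastatin term was below 0 for all 16 (median -0.94, from -1.25 for mt-Nd3 to -0.07 for mt-Nd4l). Neither term called a member or any other gene (0% in both). At an unadjusted p under 0.05 it was 0 of 16 for both terms, where 2.69% of all genes passed for auranofin and 7.08% for atorvastatin. For the atorvastatin term the unadjusted count was 6 of 16 in DESeq2, where 1958 of 18055 genes passed and 0 members were called. It was 9 of 16 without WD 1 (1463 of 17959 genes) and 4 of 16 without atorvastatin 3 (1151 of 18007 genes). All members carry a library's mitochondrial share, so they do not pass independently of one another. The median of the atorvastatin term was -0.63 without WD 2, with 1 member above 0. Without auranofin 2 it was -0.61, with 2 members above 0. Without auranofin 2 the auranofin term had a median of -0.12, with 5 members above 0 and 11 below.

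**Figure D3:**
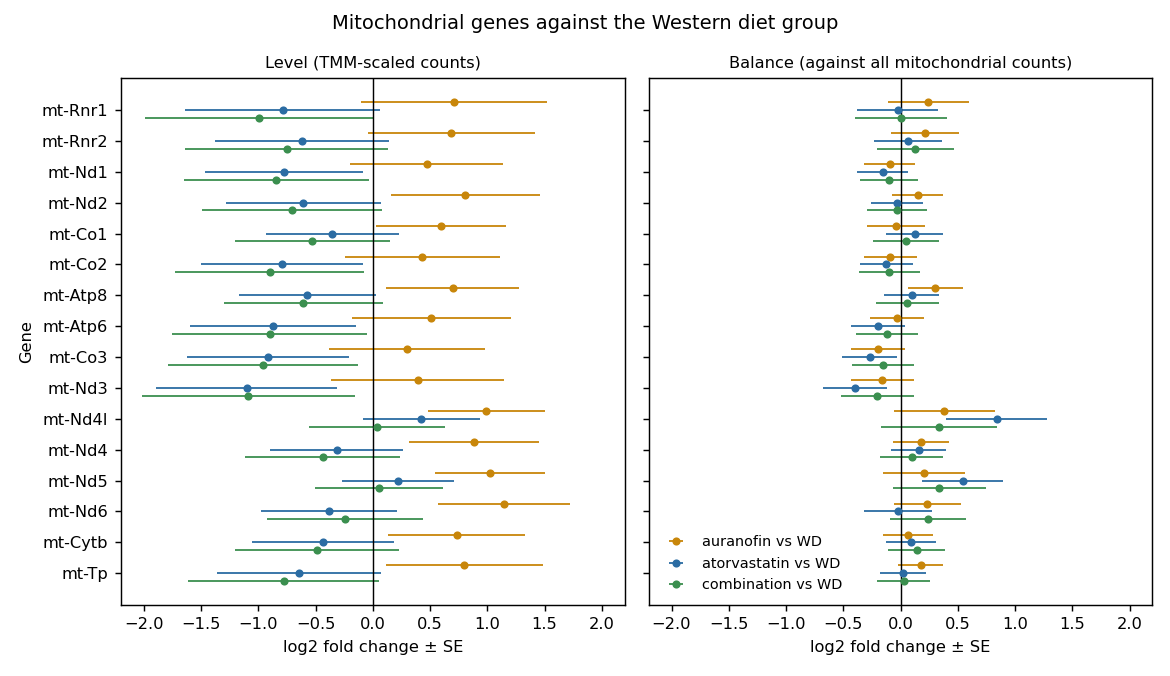
Log2 fold change with its SE (horizontal) of the 16 counted mitochondrial genes (vertical, in genome order) against WD for 3 comparisons, as levels (left) and as balance, the share of mitochondrial counts (right). The level estimates lie to the right of 0 for auranofin and mostly to the left for atorvastatin and the combination, none passed the test, and the auranofin direction was lost without auranofin 2 (median -0.13).

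The balance among the genes, meaning each gene's share of the library's mitochondrial counts, ranged from 1.31-fold over the 13 libraries for mt-Cytb to 6.68-fold for mt-Nd4l. Every gene but mt-Nd4l ranged 3.35-fold or less, against 4.14-fold for the mitochondrial share of all counts. Per kilobase of gene, mt-Atp6 (16.9% of mitochondrial counts, mean over 13 libraries), mt-Co2 (16.2%), mt-Co1 (14.8%) and mt-Co3 (13.1%) had the highest shares. The ranges of these 4 over the libraries overlapped, and the lowest of them, 11.2% for mt-Co3, lay above the highest value of any other gene, 9.79% for mt-Cytb. The cytochrome b gene mt-Cytb, the sole complex III subunit encoded here, came next at 9.16%, then mt-Nd1 (8.14%), mt-Nd4 (7.7%), mt-Nd2 (5.33%), mt-Nd3 (3.86%) and mt-Nd4l (2.74%). Each of these overlapped its neighbour in the order. mt-Nd5 (1.82%), mt-Nd6 (1.6%), mt-Rnr2 (1.41%) and mt-Rnr1 (1.33%) had lower means and overlapped one another. mt-Atp8 was lowest at 0.26%, with a highest library value of 0.368% that lay below the lowest of mt-Tp, 0.567%.

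By respiratory complex, the 7 complex I genes made up 29.3% ± 2.68 of mitochondrial counts in WD (n = 5), 31.2% ± 0.571 with auranofin (n = 3), 30.9% ± 0.533 with atorvastatin (n = 3) and 30.1% ± 2.72 with the combination (n = 2). The 3 complex IV genes made up 45.2% ± 1.92, 42.4% ± 2.15, 44.4% ± 0.208 and 44.0% ± 2.36 in the same order. The 2 complex V genes made up 12.1% ± 1.94, 11.9% ± 0.867, 10.6% ± 0.216 and 11.2% ± 0.166. The group means lay inside the range of the WD libraries, except that of auranofin for complex IV (42.4% against a lowest WD library of 42.6%) and that of the combination for complex III. The 2 rRNAs made up 3.31% ± 1.28 in WD and 3.87% ± 0.871, 3.39% ± 0.722 and 3.52% ± 0.385 in the drug groups.

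Complex III, that is mt-Cytb, was the steadiest member, with a standard deviation of 0.10 on the log2 scale over the 13 libraries. Its share was 10.48%, 8.54%, 10.8%, 10.4% and 10.1% in WD 1 to WD 5, 10.7%, 10.7% and 10.1% with auranofin, 10.84%, 10.84% and 10.50% with atorvastatin, and 11.2% and 10.99% with the combination. Both combination libraries thus lay above all 5 WD libraries. It was the 1 of 16 members whose combination and WD values did not overlap, where 3.3% of all genes did not, and its balance log2 fold change was 0.14 (SE 0.25, edgeR adjusted p = 0.997). Without WD 2 the fold change of mt-Cytb was 0.09. In a fit scaled to mitochondrial counts, 0 members were called in any of the 3 comparisons, with a background of 0% in each. At an unadjusted p under 0.05 there were 0 of 16 with auranofin, 0 with atorvastatin and 0 with the combination, where 6.83%, 15% and 1.47% of all genes passed. For auranofin and atorvastatin 0 of 16 did not overlap WD, where 2.84% and 5.67% of all genes did not. The additive terms of this fit called 0 members too (0% of all genes for either drug), and 0 passed unadjusted, where 2.68% did for auranofin and 7.18% for atorvastatin.

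mt-Nd4l had the widest balance range. Its share of mitochondrial counts was 0.648%, 0.492%, 0.824%, 0.991% and 0.195% in WD 1 to WD 5. It was 1.04%, 0.507% and 0.910% in the auranofin libraries, 1.30%, 1.28% and 0.803% in the atorvastatin libraries, and 0.547% and 1.04% in the combination libraries. Atorvastatin 1 and 2 lay above every other library and atorvastatin 3 inside the WD range. The balance fit gave a log2 fold change of 0.84 for atorvastatin against WD (SE 0.44, unadjusted p = 0.0793, edgeR adjusted p = 0.345), which did not pass. Without WD 5, the lowest library, the value for mt-Nd4l was 0.61 (edgeR adjusted p = 0.508). The next most variable were mt-Nd5 (standard deviation 0.52 on the log2 scale), mt-Rnr1 (0.44) and mt-Nd6 (0.39), against 0.12 for mt-Nd1 and 0.13 for mt-Co2.

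The imbalance was largest in WD 2, followed by WD 5 and auranofin 2. The median absolute deviation from a gene's median share was 0.464, 0.273 and 0.245 there on the log2 scale, against 0.017 to 0.133 elsewhere. WD 2 had the highest or the lowest share of all 13 libraries for 12 of the 16 genes, WD 5 for 5, and WD 3, atorvastatin 3 and combination 2 for none. In WD 2, mt-Nd5 made up 1.35% of mitochondrial counts against 1.73% to 4.52% elsewhere, and mt-Nd6 0.350% against 0.718% to 1.11%. mt-Co1 was at its lowest there too, at 18.2%, as was mt-Nd4 at 7.11%. The highest shares of mt-Co2 (14.3%), mt-Atp6 (14.4%), mt-Co3 (14.3%), mt-Nd3 (2.00%), mt-Rnr1 (2.16%) and mt-Rnr2 (3.20%) also belonged to WD 2. Beside these values, WD 2 had the lowest summed level of 4 RNAs retained in the nucleus, including Malat1 and Neat1, at 416 CPM against 738 to 1185 CPM elsewhere. It also had the most red cell RNA (11338 CPM summed over 6 genes, against 1089 to 9547) and the most macrophage RNA (5053 CPM over 10 genes, against 371 to 3418). Their part in the balance was not tested.

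The 4 mRNA genes longer than 1100 bases, mt-Co1, mt-Nd4, mt-Nd5 and mt-Cytb, were grouped after their values were seen. Together they made up 35.2% of mitochondrial counts in WD 2, 41.2% in WD 5 and 43.8% in auranofin 2. All 10 other libraries lay between 47.6% and 51.9%. These 3 libraries are also those with the highest mitochondrial share of counts and the lowest TMM factors. The share and the factor are not independent, since TMM corrects for abundant genes taking up a library.

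**Figure D4:**
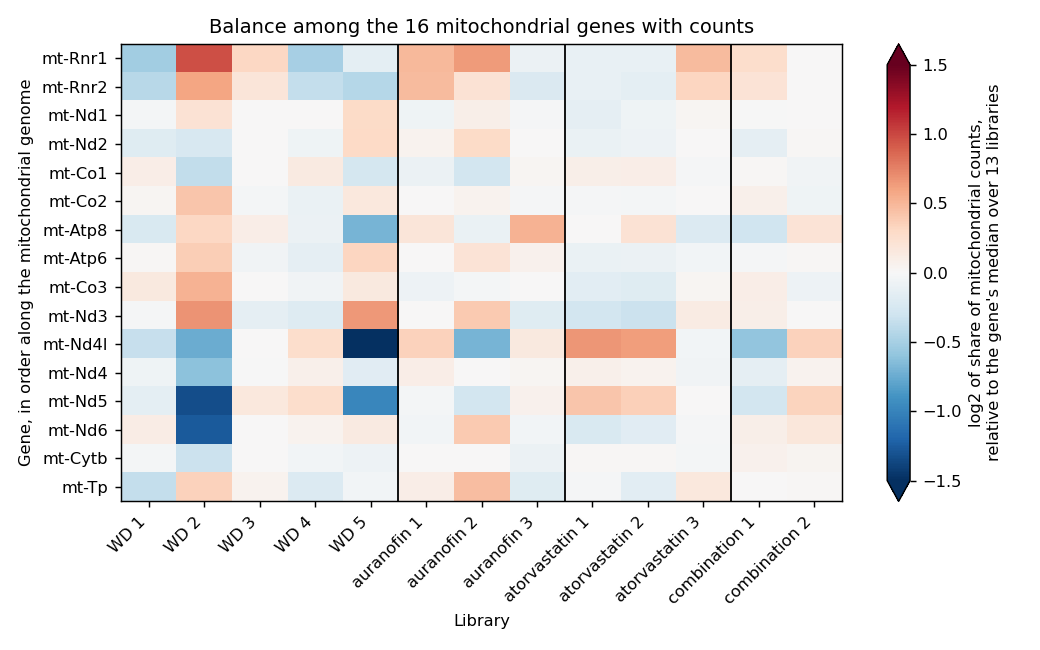
Log2 of each gene's share of mitochondrial counts relative to its median over the 13 libraries (colour, limited to ±1.5), with genes in genome order (vertical) and libraries (horizontal) divided into WD, auranofin, atorvastatin and combination by black lines. WD 2 and WD 5 show the strongest colours, with mt-Nd4l at -2.08 in WD 5 and mt-Nd5 at -1.33 in WD 2.

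The partial copies match single ends of 2 mitochondrial genes, and how far their counts come from those mRNAs was not tested. Counts of Gm29216, which matches the last 31.3% of the length of mt-Co1, came to 48.8%, 51.5%, 46.0%, 41.5% and 82.7% of the mt-Co1 counts in WD 1 to WD 5. They came to 44.5%, 58.4% and 43.2% in the auranofin libraries, 34.7%, 36.1% and 46.9% in the atorvastatin libraries, and 50.8% and 43.1% in the combination libraries. WD 5 stood far above all others, followed by auranofin 2. Counts of Gm28439, which matches the first 63.6% of mt-Nd4, came to 43.5%, 43.4%, 47.9%, 49.5% and 27.1% of the mt-Nd4 counts in WD 1 to WD 5. Auranofin libraries had 47.6%, 38.7% and 49.9%, atorvastatin libraries 56.0%, 55.8% and 47.4%, and combination libraries 42.8% and 48.3%. WD 5 was lowest here and auranofin 2 next lowest, so the 2 libraries with the highest Gm29216 to mt-Co1 ratio had the lowest Gm28439 to mt-Nd4 ratio.

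mt-Nd4l, which lies directly before mt-Nd4 on the same precursor, gave the same 2 libraries as lowest relative to mt-Nd4. This ratio and that of Gm28439 share mt-Nd4 as denominator, so they are not independent. Counts of mt-Nd4l were 2.00% of those of mt-Nd4 in WD 5 and 4.65% in auranofin 2. They were 11.3% in both atorvastatin 1 and atorvastatin 2, the highest, and those libraries also had the lowest values for the copy of the end of mt-Co1 and the highest for the copy of the start of mt-Nd4. These are ratios of counts within a library and need no scaling between libraries. Groups overlapped: the copy of the end of mt-Co1 stood at 54.1% ± 16.4 in WD (n = 5), 48.7% ± 8.39 with auranofin (n = 3), 39.2% ± 6.67 with atorvastatin (n = 3) and 46.9% ± 5.43 with the combination (n = 2). These values were described without a test.

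**Figure D5:**
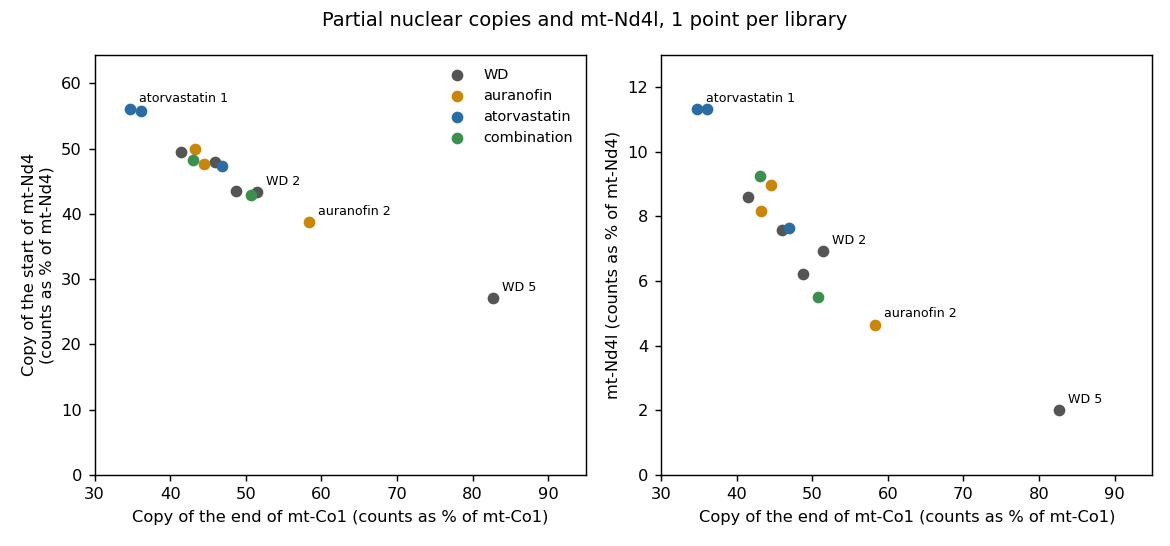
Counts of the copy of the start of mt-Nd4 (left, % of mt-Nd4 counts) and of mt-Nd4l (right, % of mt-Nd4 counts) against counts of the copy of the end of mt-Co1 (horizontal, % of mt-Co1 counts), with 1 point per library coloured by group. WD 5 lies at 82.7% and 27.1% in the left panel, and atorvastatin 1 at 34.7% and 56.0%.

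A set of 3 count ratios were compared between groups with an exact two-sided permutation test, as 9 tests adjusted together. The ratio of mt-Rnr2 to mt-Rnr1 compares the 2 rRNAs, and counts of mt-Rnr2 were 143% (auranofin 2) to 211% (WD 4) of those of mt-Rnr1. The ratio of mt-Rnr2 to mt-Nd1 compares the last rRNA with the mRNA that follows it, and it ran from 17.1% in WD 5 to 40.5% in auranofin 1. It was higher than in WD by 0.34 on the log2 scale with auranofin (exact p = 0.304), 0.26 with atorvastatin (exact p = 0.393) and 0.28 with the combination (exact p = 0.429). The ratio of mt-Nd6 to mt-Cytb sets a gene annotated on the light strand against its heavy-strand neighbour, without strand in the reads, and it ran from 4.1% in WD 2 to 10.3% in auranofin 2. All 9 pairs of groups overlapped, and adjusted exact p-values were 0.884 to 0.964. The smallest exact p the design allows before adjustment is 0.0179 for 3 against 5 libraries and 0.0476 for 2 against 5. After adjustment over the 9 tests, a single ratio at its limit would still have been above 0.05. The adjusted values therefore do not show that the ratios were equal.

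Nuclear genes that serve the mitochondrial genome were summed by list and taken singly. Summed over 16 genes of mitochondrial transcription and DNA upkeep, the level ran from 182 CPM in atorvastatin 2 to 229 in WD 2, a 1.26-fold range. The range was 1.58-fold for 19 genes of mitochondrial RNA processing and stability, 1.86-fold for 10 genes of mitochondrial mass, 2.01-fold for 7 biogenesis regulators, 2.22-fold for 23 nuclear partner subunits of complexes I, III, IV and V, and 2.35-fold for the 4 genes of complex II, which has no subunit from the mitochondrial genome. Of 79 listed genes, 78 had a level above 0 in every library, with a median 2.44-fold range, and 3 of them ranged wider than mt-Co1, the mitochondrial gene with the narrowest range. These were Perm1 (12.6-fold), Ppargc1a (10.3-fold) and Ppargc1b (6.37-fold), all biogenesis regulators. The partner subunits were lowest in atorvastatin 1 (2420 CPM) and highest in auranofin 2 (5378 CPM), with WD 2 (5336 CPM) next. Tfam, which packages and helps transcribe the mitochondrial genome, had 16.3 CPM in atorvastatin 1 and 25.2 in auranofin 2. Polrmt, the mitochondrial RNA polymerase, had 10.7 CPM in WD 2 and 17.4 in atorvastatin 2. Lrpprc, which stabilizes mitochondrial mRNAs, had 15.5 CPM in WD 2 and 55.2 in combination 2.

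None of these nuclear genes was called in any comparison, as for all genes (0%). With auranofin, 7 of 16 transcription and upkeep genes had a higher fitted level than in WD and 9 a lower one (median log2 fold change -0.04, the same as over all genes), with 0 at an unadjusted p under 0.05. Of the 18 RNA processing genes tested, 14 were higher and 4 lower (median 0.16), and 1 had an unadjusted p under 0.05, the lower Rexo2 (-0.57, SE 0.26), an exonuclease that clears short RNAs. Of the 23 partner subunits 12 were higher and 10 lower (median 0.02), with none under 0.05 unadjusted. Of the 10 mass genes 6 were higher (median 0.04) and of the 4 complex II genes 3 (median 0.32), again with none under 0.05, and of the 7 biogenesis regulators 5 (median 0.41). Tfam had a log2 fold change of 0.22 (SE 0.15), Polrmt -0.10 (SE 0.19) and Lrpprc 0.46 (SE 0.28). Ppargc1a, the coactivator of mitochondrial biogenesis, had the smallest p of its list of 7, at 1.75 (SE 0.51, unadjusted p = 0.00477, edgeR adjusted p = 0.671). It had 19.2 CPM in auranofin 1, 14.8 in auranofin 2 and 4.92 in auranofin 3, the last inside the WD range of 1.86 to 6.58. Ppargc1a is also among the brown adipocyte markers described below.

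With atorvastatin, 18 of 23 partner subunits had lower fitted levels (median -0.58) and 2 of them had an unadjusted p under 0.05, where 14.7% of genes did: Ndufs7 of complex I (-0.94, SE 0.42) and Cox7c of complex IV (-1.09, SE 0.50). Of the 16 upkeep genes 11 were lower (median -0.27), with 3 under 0.05 unadjusted in all, among them the lower Ssbp1, which binds single-stranded mitochondrial DNA (-0.63, SE 0.22). Of the 18 RNA processing genes 11 were lower (median -0.05), 2 of them with an unadjusted p under 0.05. Of the 10 mass genes 6 were lower (median -0.37) and of the 4 complex II genes 3 (median -0.31), with none under 0.05 unadjusted. Of the 7 biogenesis regulators 6 were higher (median 0.40), with Pprc1 at 0.63 (SE 0.21, unadjusted p = 0.0118, edgeR adjusted p = 0.34). With the combination the medians of the 6 lists ran from -0.19 for the partner subunits to 0.40 for the biogenesis regulators, with 0 genes under 0.05 unadjusted.

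Fat cell markers were lowest and highest in the same libraries as the mitochondrial share, but the order in between differed, most in WD 2, WD 5 and combination 2. Brown adipocyte genes, which mark mitochondria-rich fat, summed to 185 to 1004 CPM in WD, 567 to 2933 with auranofin, 507 to 783 with atorvastatin and 338 to 1743 with the combination. The lowest value was that of WD 1 and the highest that of auranofin 2, the same libraries as for the mitochondrial share. Ucp1, the uncoupling protein that defines brown fat, ran from 50.0 CPM in WD 1 to 1817 CPM in auranofin 2, and of the 10 markers Zic1 alone was at or near 0 throughout. With auranofin, 8 of the 9 tested markers had higher fitted levels, 0 were called and 7 had an unadjusted p under 0.05, where 6.5% of all genes did. WD 2 went the other way, with the second highest mitochondrial share and a brown adipocyte sum of 278 CPM, the second lowest. Combination 2, at the median mitochondrial share of 19.1%, had the second highest brown adipocyte sum, 1743 CPM. WD 5 held a share of 24.2% with a brown adipocyte sum at the median, 636 CPM. General adipocyte genes summed to 447 to 1785 CPM in WD, 1528 to 3363 with auranofin, 683 to 1608 with atorvastatin and 672 to 3220 with the combination, again lowest in WD 1 and highest in auranofin 2. Endothelial genes summed to 2448 CPM in auranofin 2 against 555 to 1026 elsewhere. Genes of B and T cells summed to 70.5 CPM there against 3.4 to 14.8. With auranofin all 7 endothelial and all 8 B and T cell markers had higher fitted levels, 4 and 5 of them with an unadjusted p under 0.05. The sums of auranofin 1 and auranofin 3 lay inside the WD range for both lists. For endothelial genes they were 975 and 760 CPM, against 555 to 1026 in WD. For B and T cell genes they were 7.59 and 10.95 CPM, against 4.24 to 13.69 in WD. Heart muscle genes summed to 1605 CPM in combination 2, 550 in WD 4 and 394 in WD 1, against 19.96 to 55.7 in the rest. All 9 tested heart muscle markers had lower fitted levels with auranofin than in WD, 7 of them under 0.05 unadjusted. With atorvastatin 8 of the 9 were lower, again with 7 under 0.05, where 14.7% of all genes were. None of these markers was called. Skeletal muscle genes summed to 2.84 CPM in atorvastatin 1 and 150 in WD 3, and fibroblast genes to 4053 CPM in auranofin 1 and 7346 in atorvastatin 2. The part of these cells in the mitochondrial values was not tested.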

How the data were processed

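RNA-seq of 13 libraries of whole aorta was analysed from the raw counts per gene that the authors deposited. Per the submitters' processing notes, the aligner was STAR 2.6.1d, the build GRCm39 and the counter featureCounts (Subread 1.6.3). Counting options were not given in the sources used here. The table held 56953 genes, of which 1554 had no symbol, and all 13 columns matched a library's labels. No library was a repeat of another: none had identical counts, and chi-squared per degree of freedom was at least 17.2 for every pair.

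Members and gene lists were chosen with earlier results of these data known. The rule for named genes took all protein and rRNA members, the tRNA genes that passed the low-count filter, up to 3 genes per nuclear list with the smallest p in a comparison, and Tfam, Polrmt, Lrpprc and Ppargc1a. Sums of marker lists were described without a test. Every gene was fitted in edgeR 4.0.16 (R 4.3.3) by the quasi-likelihood method with 1 mean per group, after filterByExpr left 18055 genes holding 99.9% to 100% of counts. Levels used TMM scaling. For balance, mitochondrial genes were scaled to the library's mitochondrial total and the other genes to theirs. P-values were two-sided and Benjamini-Hochberg adjusted over all genes, with a threshold of 0.05. SE is the log2 fold change divided by the square root of F. CPM values are TMM-scaled. The fits were also run on simulated data, in which all mitochondrial genes were given the same low dispersion. In the real libraries the SD of their balance ran from 0.10 (mt-Cytb) to 0.745 (mt-Nd4l) on the log2 scale. The simulated run therefore does not show how the fits perform for the most variable members.

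Nuclear copies were found with blastn 2.17.0 (word size 16) among GENCODE M21 transcripts. All sequences came from GENCODE M21 (GRCm38), and no coordinates are given because the builds differ. Exact permutation tests went through every reassignment of the libraries, and binomial intervals used scipy 1.17.1. Alternatives were DESeq2 1.42.0, median-of-ratios factors, scaling on non-mitochondrial genes, a replicate block, fits on only the 2 groups compared, no filter on low counts or a harder one (1 CPM in 2 libraries), other denominators, and leaving out each library. Leaving the nuclear copies out was added after seeing the data. Figures were drawn with matplotlib 3.10.9.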

Additional observations from a re-analysis of the deposited data

Results flagged for a closer look

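Each set of 5 WD values was searched for a library set apart from the other 4 by Dixon's criterion at 95%, which chance alone meets in about 1 in 20 sets. Of 49 sets, 7 had such a library, 5 of them in WD 2 and 2 in WD 5. In WD 2, mt-Nd6 was at 0.350% of mitochondrial counts with the next WD library at 0.840%. Its ratio to mt-Cytb was 4.1% there, with the next at 7.82%. mt-Cytb, and with it complex III, was at 8.54% of mitochondrial counts in WD 2, with the next at 10.1%. mt-Rnr1 was at 9107 CPM in WD 2, with the next at 3030 CPM. In WD 5, the copy of the end of mt-Co1 was at 82.7% of mt-Co1 counts, with the next at 51.5%. The copy of the start of mt-Nd4 was at 27.1% of mt-Nd4 counts in WD 5, with the next at 43.4%. The sets share genes and libraries and are not independent. Groups of 3 or fewer libraries were not searched.

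Counts also fell on genes outside the mitochondrial genome that carry its sequence. The 7 near-identical nuclear copies took at least 5.22% of all counts in every library, with 21.5% in the highest.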

How the results depend on the processing

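Calls over all genes depended on the settings. Without a low-count filter the level fit called 13 genes with auranofin, 2 with atorvastatin and 9 with the combination, and the balance fit called 12, 2 and 9. DESeq2 called 2 genes with auranofin and 4 with the combination. Leaving out 1 library at a time gave 0 to 10 genes for the combination in both fits, with 10 without combination 1, where combination 2 alone is assumed to vary like the other groups. No member was called under any setting run, and the smallest edgeR or DESeq2 adjusted p of a member over all settings was 0.221. Of 336 member levels recomputed for each comparison with WD, 11 changed sign with auranofin, 3 with atorvastatin and 10 with the combination. Leaving out 1 library at a time also moved log2 count ratios across 0. mt-Rnr2 to mt-Rnr1 lay between -0.168 and 0.039 with auranofin, and between -0.025 and 0.103 with atorvastatin. mt-Nd6 to mt-Cytb lay between -0.248 and 0.04 with atorvastatin, and between -0.034 and 0.254 with the combination. The cause was not tested. With 2 to 5 libraries per group, and at least 2126064 mitochondrial counts per library, the spread between libraries and not depth limits these comparisons. Leaving the nuclear copies out of the table left the level medians at 0.69, -0.63 and -0.74 for the 3 comparisons.

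Libraries of different groups share replicate numbers, so a replicate block was fitted. It called 0 genes in every comparison, with level medians of 0.66, -0.38 and -0.65. Deviations of same-numbered libraries correlated at -0.01, 0.43 and 0.16 for auranofin and WD, 0.21, 0.02 and -0.08 for atorvastatin and WD, and -0.08 and -0.26 for the combination and WD. The numbers were therefore not taken to pair the libraries.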
